A study of Homo sapiens with 12 samples.

Results

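The nucleosome remodelling and deacetylase (NuRD) complex genes GATAD2A, GATAD2B, CHD3, CHD4, MTA1, MTA2, HDAC1 and HDAC2 were followed through m6A profiles of METTL16-knockout leukaemia cells. Members were the rows of the authors' 4 deposited tables that carry one of these 8 gene names, 214 windows of 296568 and 8 genes of 16417. Of the 214 windows, 56 were in the table of sgMETTL16-1 replicate 1, 53 in that of sgMETTL16-1 replicate 2, 48 in that of sgMETTL16-2 replicate 1 and 57 in that of sgMETTL16-2 replicate 2. The genes were chosen with calls on some of them already known, so the values below describe them and no test of the set was made.

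NOMO-1, a human acute myeloid leukaemia line, carried knockout guide sgMETTL16-1, knockout guide sgMETTL16-2 or the control guide sgNS, and was grown with 2 µg/ml puromycin. The labels give sgNS cells the genotype control and do not say whether any guide's cells were a single clone. Polyadenylated RNA was sequenced without (input) and with immunoprecipitation by an m6A antibody (IP), 2 libraries of each kind for each guide and 12 in all. Each deposited table compares 1 knockout guide with sgNS for 1 replicate number, and nothing in the labels says that the numbers are separate cultures. All 8 monocytic leukaemia markers examined (CD33, CD14, ITGAM, LYZ, CEBPA, SPI1, CSF1R and MPO) were listed in every table, whereas CD3E, HBB, EPCAM and ALB were listed in none, and CD79A was listed. METTL16 itself had 5 to 7 windows per table and none called.

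The authors gave each window its fold enrichment in IP relative to input, and the log2 fold change by which knockout and sgNS differ. A positive log2 fold change is read here as more m6A relative to input in the knockout. That reading is not stated in the tables, and all directions given here would reverse under the other one. A window is enriched when the authors' FDR of IP over input is under 0.05, and called when their FDR of the difference is under 0.05. Read depth per library is unknown, and a table gives no spread between replicates. In bulk RNA, a change in every cell and a larger change in some of them cannot be told apart.

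NuRD joins a chromatin remodelling ATPase (CHD3 or CHD4) to a histone deacetylase (HDAC1 or HDAC2). MTA proteins are the scaffold that holds the deacetylase. GATAD2A and GATAD2B connect the remodeller to the rest of the complex through the methyl-CpG-binding-domain (MBD) proteins MBD2 or MBD3. The complex compacts chromatin at enhancers and promoters and shapes lineage choice in blood cells. METTL16 methylates the U6 small nuclear RNA and hairpins of the MAT2A messenger RNA, whereas most m6A of messenger RNA is placed by the METTL3-METTL14 complex.

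Every call on these 8 genes was an increase. Of the 214 windows in the authors' deposited tables, 11 were called higher and 0 lower, on 5 of the 8 genes: GATAD2A (3 calls), CHD3, CHD4, MTA1 and HDAC1 (2 calls each). GATAD2B, MTA2 and HDAC2 had no call. All 11 called windows were enriched, with fold enrichments between 1.43 and 3.02, and their log2 fold changes lay between 0.27 and 0.76 in the authors' deposited tables. No call reached a log2 fold change of 1. All enriched windows had a median of 0.13 or 0.14 in the 3 tables that made these calls, and relative to that median, with a two-sided p, 5 of the 11 were still called: HDAC1 in both replicate 2 tables, and CHD4, GATAD2A and MTA1 in replicate 1 of sgMETTL16-2. A two-sided p alone left 9. Of all windows, the shift called 0.12% higher in sgMETTL16-1 replicate 2, and 0.202% and 0.0871% in replicates 1 and 2 of sgMETTL16-2. With a two-sided p alone these shares were 0.42%, 0.571% and 0.429%.

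The calls were uneven across tables. The authors' deposited table of sgMETTL16-1 replicate 1 called 0 of 56 NuRD windows higher, against 0.0743% of all its windows. That of sgMETTL16-1 replicate 2 called 4 of 53, on CHD3, CHD4, GATAD2A and HDAC1, against 0.583% of all windows. With sgMETTL16-2 the authors' deposited tables called 3 of 48 in replicate 1, on CHD4, GATAD2A and MTA1, against 0.875% of all windows, and 4 of 57 in replicate 2, on CHD3, GATAD2A, HDAC1 and MTA1, against 0.586%. Of NuRD windows 0 were called lower in each table, where lower calls made up 0.281%, 0.167%, 0.965% and 0.149% of all windows in the same table order and 2.79%, 0.766%, 4.38% and 0.676% of all enriched windows.

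The calls can also be set against enriched windows alone, since a larger share of NuRD windows than of all windows was enriched. The shares enriched were 17.9% of NuRD windows against 8.1% of all windows, then 35.8% against 11.9%, with sgMETTL16-1 in replicates 1 and 2, and 35.4% against 10.2%, then 31.6% against 12.3%, with sgMETTL16-2. Among enriched windows, 0 of 10 NuRD windows were called higher in replicate 1 of sgMETTL16-1 (0.809% of all enriched windows) and 4 of 19 in replicate 2 (4.64%). For sgMETTL16-2 the counts were 3 of 17 in replicate 1 (7.38% of all enriched windows) and 4 of 18 in replicate 2 (4.54%). These shares are read as descriptions, because the genes were chosen with such calls in view.

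The median of the enriched NuRD windows was close to that of all enriched windows with sgMETTL16-2 and further from it with sgMETTL16-1. It was -0.17 against -0.04 over all enriched windows in replicate 1 of sgMETTL16-1, and 0.22 against 0.13 in replicate 2, in the authors' deposited tables. For sgMETTL16-2 the medians were 0.12 against 0.13 in replicate 1 and 0.18 against 0.14 in replicate 2. In the 3 tables whose enriched windows had a positive median, 16 of 19, 15 of 17 and 15 of 18 enriched NuRD windows lay above 0, where 67.2%, 63.3% and 67.4% of all enriched windows did. In the remaining table, replicate 1 of sgMETTL16-1, 2 of 10 lay above 0, against 44.0%.

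**Figure D1:**
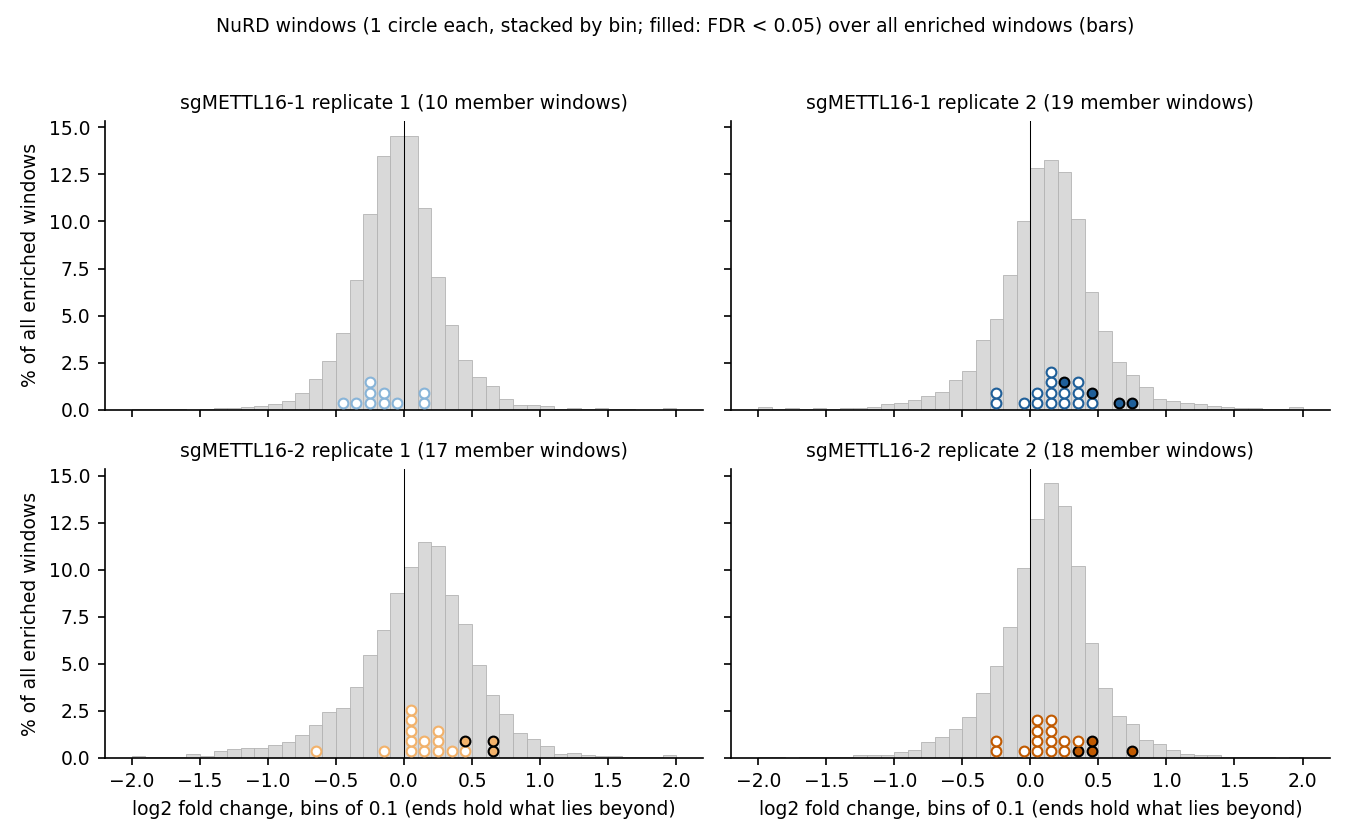
Log2 fold change of enriched windows (horizontal axis, bins of 0.1) in each of the 4 tables, with bars for the percent of all enriched windows and circles for the NuRD windows, filled where called. The NuRD windows spread over the middle of the bars, mostly left of 0 in sgMETTL16-1 replicate 1, and the called ones lie right of 0 in the other 3 tables.

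The 11 calls fall on 6 regions, because windows of different tables cover the same bases. Of the calls, 3 begin within 1000 bases of their gene's annotated 5′ end, 4 end within 1000 bases of the 3′ end and 4 do neither. Of the 53 enriched NuRD windows without a call, 12 lay near the 5′ end and 12 near the 3′ end. Called windows had a median length of 479 bases, and enriched windows without a call 358 bases. Gene ends are those of RefSeq for GRCh38, and which exon or untranslated region a window covers was not annotated here.

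**Figure D2:**
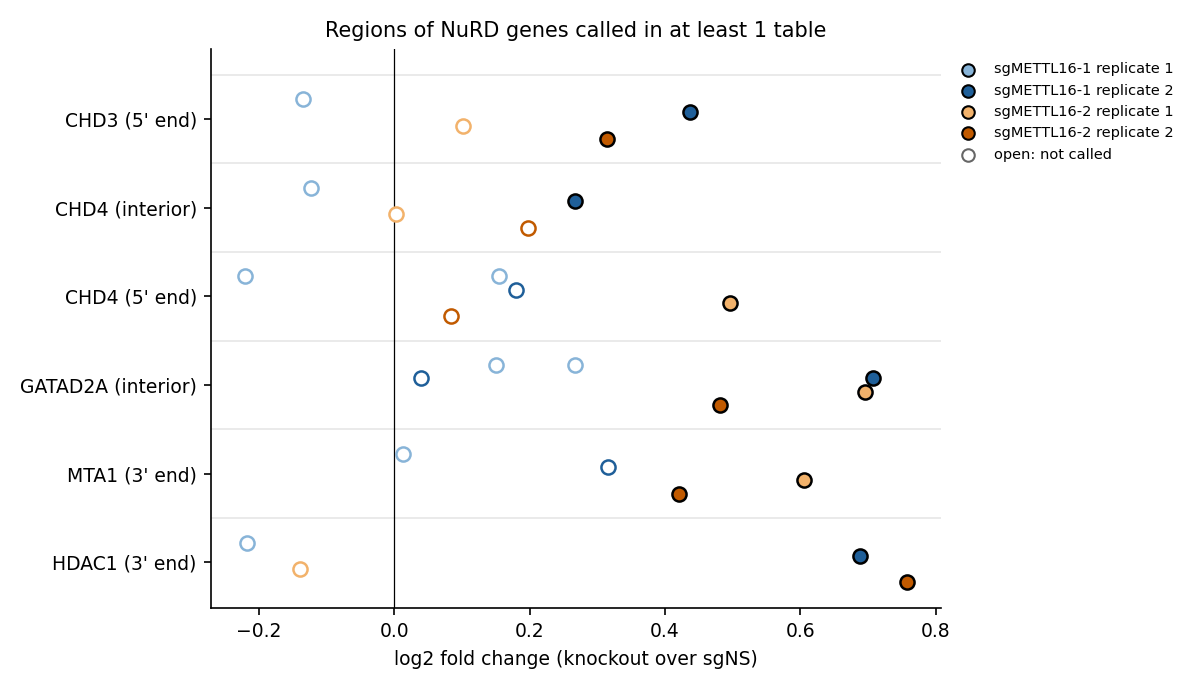
Log2 fold changes (horizontal axis) of the 6 called regions in each table, from every window that shares bases with the region's called window of lowest FDR, filled where called, so a table that splits a region has more than 1 point. HDAC1 and CHD3 are filled in both replicate 2 tables, MTA1 in both sgMETTL16-2 tables, and GATAD2A in 3 tables.

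GATAD2A, the p66-alpha subunit that bridges MBD proteins and the remodeller, carried the most repeated increase. Its gene lies on the plus strand of chromosome 19, from 19385843 to 19508932. In the authors' deposited table of sgMETTL16-2 replicate 1, the window from 19502503 to 19506425, with 1106 bases in 2 blocks, had a log2 fold change of 0.70 (FDR = 1.48e-08). Its counterpart in the authors' deposited table of sgMETTL16-2 replicate 2, from 19502414 to 19506425, was at 0.48 (FDR = 0.000316). The mean over the 2 tables was 0.59, and the linear folds were 1.62 and 1.40. The window ends 2507 bases before the annotated 3′ end, and by FDR it stood 36th of 663 higher calls in replicate 1 and 115th of 410 in replicate 2.

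The same GATAD2A bases were divided differently with sgMETTL16-1. In the authors' deposited table of replicate 2 they formed a pair of enriched windows, 1 of 657 bases at 0.04 (FDR = 0.658) and, downstream of it, 1 of 419 bases from 19506007 to 19506425 at 0.71 (FDR = 0.000832). The authors' deposited table of replicate 1 had a window of 747 bases from 19505679 to 19506425 at 0.15 (FDR = 0.655). The end at 19506425 was thus shared by all 4 tables, and the bases just before it were called in 3 of them. Which sgMETTL16-1 replicate 2 window is taken as the match decides the mean of that guide. It is 0.09 when matched to the sgMETTL16-2 window, and 0.43 when the sgMETTL16-1 windows are matched to each other. The 0.09 joins the windows of 747 and 657 bases, which cover mostly different bases, so it is not a mean over 1 region.

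No other GATAD2A window was called. A window that starts 259 bases after the annotated 5′ end, at 19386102, had values in the authors' deposited tables of -0.21 (replicate 1) and 0.27 (replicate 2) for sgMETTL16-1, and of 0.21 for replicate 1 of sgMETTL16-2. A longer window over the same start was at 0.01 in the authors' deposited table of sgMETTL16-2 replicate 2. Between these ends, enriched windows around 19498461 to 19501396 lay between -0.08 and 0.03 in the 3 of the authors' deposited tables that had one. Across its 34 listed windows, 12 enriched, GATAD2A ranged from -1.26 to 1.00 in the authors' deposited tables, and both extremes were unenriched.

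GATAD2B, the p66-beta paralogue on chromosome 1, had 47 windows in the authors' deposited tables, the most of the 8 genes, of which 4 were enriched. Each of the authors' deposited tables had 1 of them, with values of -0.07 and 0.34 for sgMETTL16-1 in replicates 1 and 2, and of 0.24 and 0.09 for sgMETTL16-2. The lowest FDR over all GATAD2B windows was 0.476. The enriched windows of the last 3 tables covered nearly the same bases, from about 153818085 to 153828232. The difference between the GATAD2 paralogues was not tested.

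**Figure D3:**
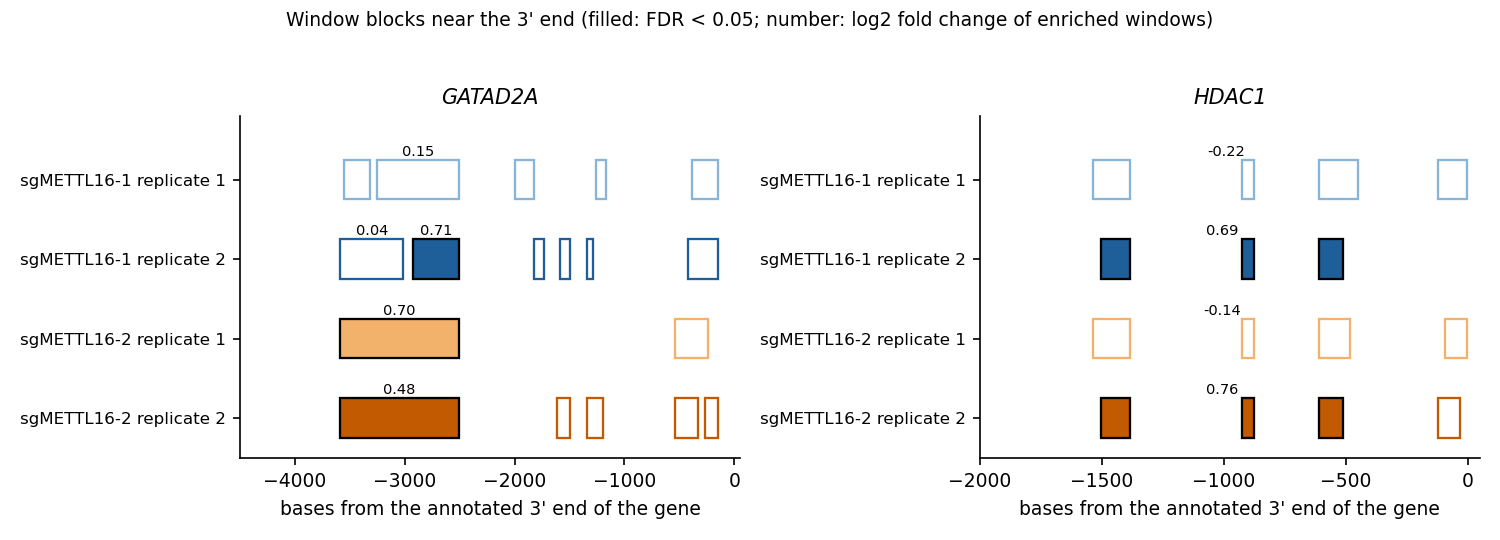
Window blocks of GATAD2A and HDAC1 by their distance in bases from the annotated 3′ end (horizontal axis), 1 row per table, filled where called, with the log2 fold change printed above enriched windows. A window may consist of several blocks, as for HDAC1, and GATAD2A blocks further upstream are outside the frame. The GATAD2A calls share their downstream edge, and the HDAC1 blocks are nearly the same in all 4 tables while their values differ by replicate number.

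HDAC1, a catalytic deacetylase subunit on the plus strand of chromosome 1 (32292083 to 32333626), had the NuRD increases with the lowest FDRs, and these followed the replicate number. The authors' deposited tables of replicate 2 gave the window from 32332122 to 32333115 a log2 fold change of 0.69 with sgMETTL16-1 (FDR = 1.23e-10) and 0.76 with sgMETTL16-2 (FDR = 3.98e-13). By FDR these stood 30th of 416 and 15th of 410 higher calls. In the authors' deposited tables of replicate 1, the window from 32332092, which holds the same 269 bases, was at -0.22 with sgMETTL16-1 (FDR = 0.421) and at -0.14 with sgMETTL16-2 (FDR = 0.518). Both replicate 2 values were thus high and both replicate 1 values below 0, and the ranges did not overlap. The looser order, with both replicate 2 values above both replicate 1 values whatever their sign, was not particular to HDAC1. Among NuRD windows matched in all 4 tables, it also held for CHD3, for both MTA2 ends and for CHD4 near 6578450 and 6594592. It did not hold for those of GATAD2A. How often it held among all windows was not counted, so it is not read here as a trait of these genes. The median of all enriched windows was -0.04 and 0.13 in replicates 1 and 2 of sgMETTL16-1. In those of sgMETTL16-2 it was 0.13 and 0.14.

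The enrichment of that HDAC1 window was alike in all tables. Its fold enrichment was 1.43 in both sgMETTL16-1 tables and 1.53 and 1.49 in those of sgMETTL16-2, in the authors' deposited tables, and the FDR of IP over input lay between 3.16e-23 and 3.98e-16. Which sgNS libraries entered each table is not given in the sources used here. Whether the tables of 1 replicate number share sgNS libraries, and the part of such sharing in the HDAC1 values, was not tested. The window ends 451 to 511 bases before the 3′ end of the gene, and HDAC1 windows elsewhere, 7 in all, were neither enriched nor called.

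HDAC2, the paralogous deacetylase on chromosome 6, had 20 windows and no enriched one in the authors' deposited tables. The window with the lowest FDR, from 113940952 to 113943366, was at -0.40 in replicate 1 of sgMETTL16-2 (FDR = 0.0933). The authors' deposited table of sgMETTL16-1 replicate 1 had a window over part of that range at -0.11 (FDR = 0.655). Log2 fold changes of exactly -1, 0, 1 and 2 occurred among its short unenriched windows.

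MTA1, a scaffold subunit on the plus strand of chromosome 14 (105419827 to 105470729), was called at its 3′ end in both tables of sgMETTL16-2. The authors' deposited table of replicate 1 gave 0.61 (FDR = 0.000263) for the window from 105470096 to 105470453. In replicate 2 of that guide the authors' deposited table gave 0.42 (FDR = 0.0038) for a longer window from 105469965 to 105470720, and the mean was 0.51. With sgMETTL16-1 the authors' deposited tables gave 0.01 (FDR = 0.655) for the 239 downstream bases of the replicate 1 sgMETTL16-2 window, unenriched, in replicate 1, and 0.32 (FDR = 0.185) for its exact bases in replicate 2. The sgMETTL16-2 values were both above the sgMETTL16-1 values, and that difference was not tested.

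MTA2, the paralogue on the minus strand of chromosome 11 (62593214 to 62601865), was measured at both ends and called at neither. At its 5′ end the window from 62601483 to 62601840 was at -0.49 in replicate 1 and, unenriched, -0.40 in replicate 2 of the authors' deposited tables for sgMETTL16-1. Nearly the same bases were at -0.62 (FDR = 0.268) in the authors' deposited table of sgMETTL16-2 replicate 1 and at 0.01 in that of replicate 2. At its 3′ end, windows that begin at 62593948 in transcript order were listed in all of the authors' deposited tables. With sgMETTL16-1 they were at -0.22, unenriched, in replicate 1 and at 0.35 in replicate 2. With sgMETTL16-2 they were at 0.06 and 0.39. The 5′ end was below 0 in 3 tables, and the 3′ end was higher in replicate 2 than in replicate 1 with each guide.

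CHD3, a remodelling ATPase on the plus strand of chromosome 17 (7884796 to 7912755), had 21 enriched windows over the 4 tables, the most of the 8 genes. Its 5′ window of 4 blocks was called in both replicate 2 tables. Replicate 2 of the authors' deposited tables gave 0.44 with sgMETTL16-1 (7884895 to 7890975, FDR = 7.94e-05) and 0.32 with sgMETTL16-2 (7884895 to 7890945, FDR = 0.0191). The authors' deposited tables of replicate 1 gave -0.14 with sgMETTL16-1 and 0.10 with sgMETTL16-2, uncalled. As for HDAC1 and for windows of MTA2 and CHD4, both replicate 2 values were above both replicate 1 values.

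Away from the 5′ window, no CHD3 window was called. The 5 other enriched ones of the authors' deposited table of sgMETTL16-1 replicate 2 lay between 0.09 and 0.22, and those of replicate 1 were at 0.11 and -0.32. With sgMETTL16-2 the 5 others of each of the authors' deposited tables lay between 0.02 and 0.42 in replicate 1 and between -0.20 and 0.24 in replicate 2. The 3′ window was the nearest to a call, at 0.30 in the authors' deposited table of sgMETTL16-2 replicate 1 (FDR = 0.0851), against 0.24 in replicate 2.

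CHD4, the paralogous ATPase on the minus strand of chromosome 12 (6570082 to 6607379), was called in 2 different regions, each in 1 table. A 5′ window of 5 blocks from 6601729 to 6607433 was at 0.50 in the authors' deposited table of sgMETTL16-2 replicate 1 (FDR = 6.31e-05). The same region was at 0.08 (FDR = 0.65) in replicate 2 of that guide in the authors' deposited table, so the call did not repeat. With sgMETTL16-1 it was at 0.18 in replicate 2, and in replicate 1 it was listed as an enriched window at -0.22 and an unenriched one at 0.16 in the authors' deposited tables.

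The other CHD4 call was interior and just inside the threshold. In the authors' deposited table of sgMETTL16-1 replicate 2 the window from 6578450 to 6581670 was at 0.27 (FDR = 0.0457). Windows with the same start were at -0.12 in replicate 1 of that guide and at 0.00279 and 0.20 in replicates 1 and 2 of sgMETTL16-2 in the authors' deposited tables. A further CHD4 region, at the 3′ end from 6570351, was uncalled and differed in sign by replicate number. It was at -0.29 and -0.26 in the authors' deposited tables of replicate 2 for sgMETTL16-1 and sgMETTL16-2, both enriched. In replicate 1 the shorter unenriched windows with that start were at 0.40 with sgMETTL16-1 and 0.56 (FDR = 0.109) with sgMETTL16-2 in the authors' deposited tables. The RefSeq table lists other genes across 5 of the 8: NAA38 and SCARNA21 at CHD3, CHD4-AS1 and SCARNA11 at CHD4, MIR640 at GATAD2A, HDAC2-AS2 at HDAC2, and 3 LOC entries at CHD4, GATAD2A and GATAD2B. Libraries were made with a stranded kit, and whether strand was used in counting is not given in the sources used here. No window of another gene shared bases with any of the 214 NuRD windows.

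**Figure D4:**
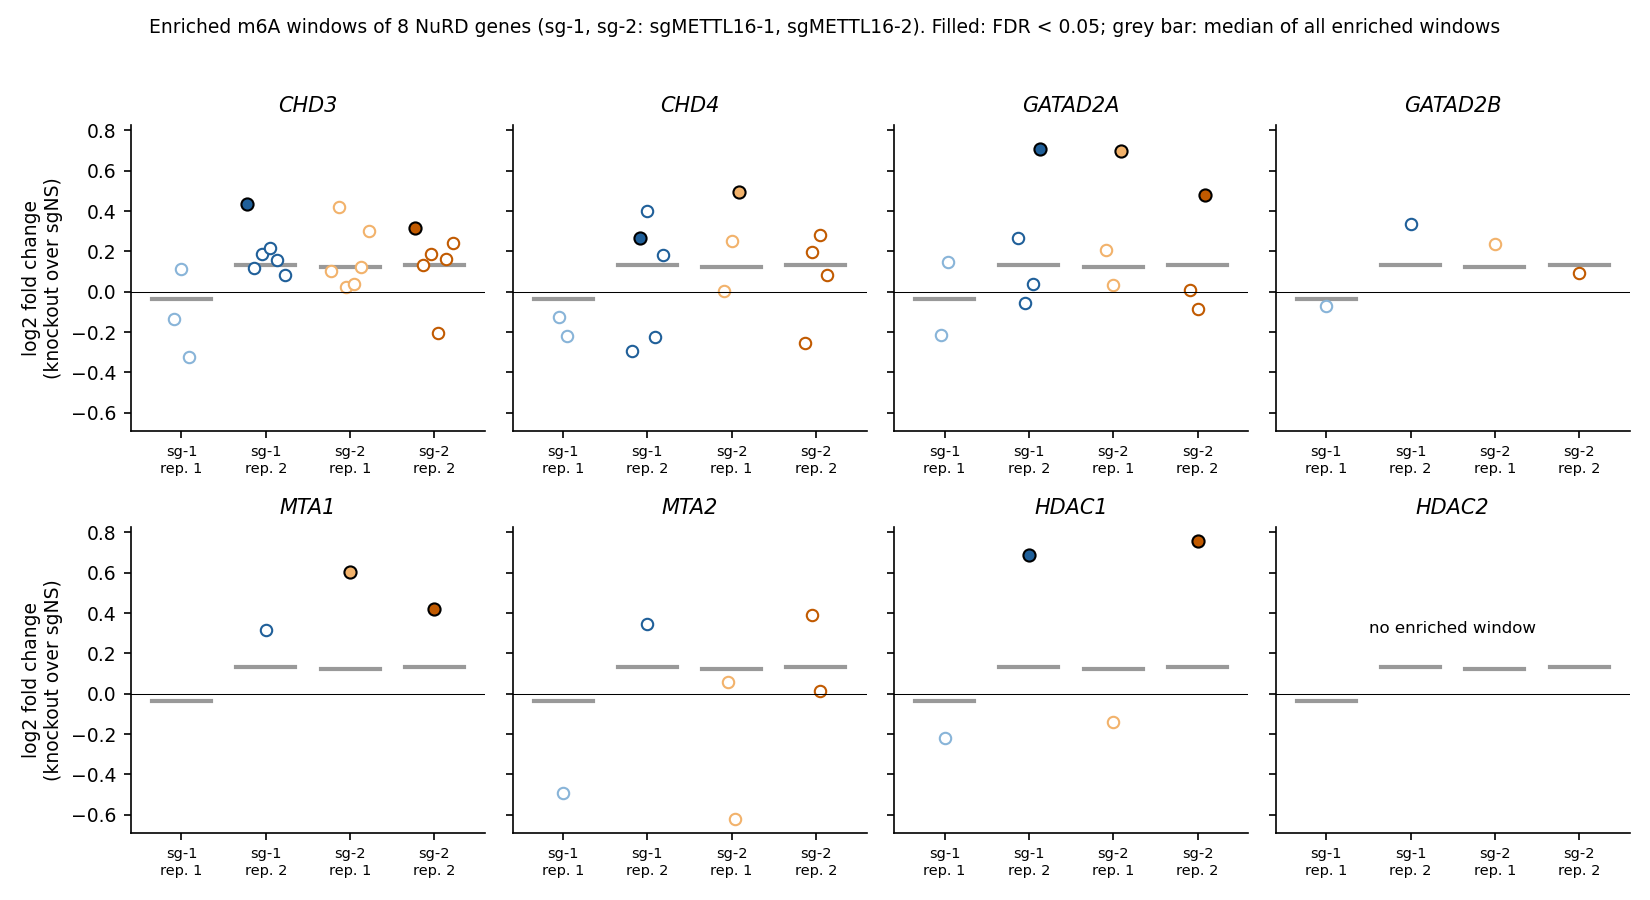
Log2 fold change (vertical axis) of every enriched window of the 8 genes in the 4 tables, ordered along the genome within a table, filled where called, with a grey bar at the median of all enriched windows of that table. GATAD2A is filled in 3 tables, HDAC1 in both replicate 2 tables, MTA1 in both sgMETTL16-2 tables, and HDAC2 has no enriched window. MTA1 has none in sgMETTL16-1 replicate 1.

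Repetition within a guide was counted over pairs of windows, 1 from each table, with a minimum of 0.5 of each window's bases in common. For sgMETTL16-2, 2 of 22 matched NuRD windows were called higher in both tables, those of GATAD2A and MTA1, against 0.529% of all 21192 matched windows and, as 2 of 12, against 2.58% of the 4228 enriched in both. Relative to the enriched medians 0 were called in both. For sgMETTL16-1, 0 of 13 were called higher in both, against 0.02% of all 20031 matched windows, and 0 of the 5 enriched in both, against 0.125% of 3192. Lower calls in both tables numbered 0 with either guide. The shares of all matched windows were 0.0449% for sgMETTL16-1 and 0.0613% for sgMETTL16-2, and those of windows enriched in both 0.282% and 0.26%. Just inside the threshold stood the CHD4 interior window and the CHD3 window of sgMETTL16-2 replicate 2, and just outside it the CHD3 3′ window (FDR = 0.0851) and the HDAC2 window (FDR = 0.0933) of the authors' deposited table of sgMETTL16-2 replicate 1.

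NuRD subunits outside the 8 genes showed 1 repeated increase. Of the 7 examined (MTA3, MBD2, MBD3, RBBP4, RBBP7, CDK2AP1 and CHD5), all were listed in every table. MBD3, the methyl-CpG-binding-domain subunit that GATAD2 proteins contact, was called higher in 3 of the authors' deposited tables, at 0.37 in replicate 2 of sgMETTL16-1 (FDR = 1.02e-07) and at 0.42 (FDR = 1.07e-08) and 0.35 (FDR = 3.24e-05) with sgMETTL16-2. In replicate 1 of sgMETTL16-1 the MBD3 window was at 0.17 (FDR = 0.319) in the authors' deposited table, so the table with no call on the 8 genes had none on MBD3. The window ran from 1576671 to 1585097 on chromosome 19, with 2142 bases, in both tables of sgMETTL16-1, and it was enriched in all 4 tables. These were the only higher calls of the 7 genes, 1 of 45 windows in replicate 2 of sgMETTL16-1 (0.583% of all windows). With sgMETTL16-2 they were 1 of 44 in replicate 1 (0.875%) and 1 of 40 in replicate 2 (0.586%).

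The histone-binding subunits RBBP4 and RBBP7 had the only lower calls among these 7 genes, all in replicate 1. They were 1 of 58 windows with sgMETTL16-1 and 2 of 44 with sgMETTL16-2, against 0.281% and 0.965% of all windows. Lower calls over all windows were also fewer in replicate 2, at 0.167% and 0.149%. RBBP7 was called lower at its window from 16844682 to 16844860 on chromosome X, at -1.06 with sgMETTL16-1 (FDR = 0.0112, unenriched) and at -1.49 with sgMETTL16-2 (FDR = 0.00617) in the authors' deposited tables. RBBP4 was called lower at -0.64 with sgMETTL16-2 (FDR = 0.024, unenriched) in the authors' deposited table of replicate 1. A shorter RBBP7 window with the same start was at -0.25 (FDR = 0.658, unenriched) in the authors' deposited table of sgMETTL16-1 replicate 2, and that of sgMETTL16-2 replicate 2 listed none there. A separate RBBP7 region, from about 16869179, was enriched and uncalled in all 4 of the authors' deposited tables, at -0.02 and 0.18 in replicates 1 and 2 of sgMETTL16-1 and at 0.11 and 0.26 in those of sgMETTL16-2.

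Lists of related genes were counted in the same way. Of 27 gene names of other class I deacetylase complexes, 26 were listed in each table, and 0, 1, 1 and 2 of them were called higher and 1, 0, 0 and 0 lower in table order. Of 13 SWI/SNF remodeller genes, all listed, 0, 3, 3 and 2 were called higher and 0, 0, 1 and 0 lower. By windows, the SWI/SNF genes had 0 of 98, 5 of 83, 5 of 93 and 2 of 82 called higher in table order. Of their enriched windows 0%, 20%, 19% and 7.69% were called higher, beside 0%, 21.1%, 17.6% and 22.2% of the enriched windows of the 8 NuRD genes. ARID1A, a DNA-binding SWI/SNF subunit, was at 0.75 (FDR = 1.38e-05) and 0.34 (FDR = 0.0427) in the authors' deposited tables of sgMETTL16-2. Of 9 NuRD-binding factors and partners, among them ZFPM1, BCL11A and IKZF1, 7 or 8 were listed in each table, and 0 were called in any of the authors' deposited tables. Genes with a window called higher made up 0.368%, 2.51%, 3.66% and 2.52% of all genes in table order, beside 0, 4, 3 and 4 of the 8 NuRD genes. Genes with a window called lower made up 1.39%, 0.76%, 4.17% and 0.682%.

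The genes whose 4-table pattern was nearest to that of GATAD2A were SCAND1, ZNF775, PPP6R1, CD99L2 and UBE2R2. Likeness was the Euclidean distance between gene medians of enriched windows over the 4 tables, among 3174 genes with an enriched window in each, and these 5 lay at 0.0362 to 0.0738. The GATAD2A medians were -0.03 and 0.15 with sgMETTL16-1 and 0.21 and 0.01 with sgMETTL16-2, which are lower than its called windows because uncalled windows enter them. Of the NuRD genes, CHD4 stood 208th, GATAD2B 246th, CHD3 292nd, MTA2 2595th and HDAC1 2950th. MTA1 and HDAC2 had no enriched window in 1 or more tables and could not be placed.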

How the data were processed

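The submitters' processing notes name STAR, without a version, and GRCh38. No source used here gives the window caller or says which sgNS libraries entered a table. Per the file headers, the authors deposited for each window a log2 fold change of knockout against sgNS with the log10 of its FDR. The deposited log10 p-value of that difference and the log10 p-value and FDR of enrichment were handled as scores, and the fold enrichment is the authors' ratio. Each table's number was taken for its replicate, and no value per library was used, so depth limits precision in an unknown way. Sequence under the windows was not used here.

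Windows of 2 tables matched 1 to 1 on gene name and strand at a minimum of 0.5 of each window's bases in common. Deposited starts count from 0 and are given from 1. Members and lists were chosen with earlier results of these data known. All 8 members, 7 further subunits, related list genes called in both tables of a guide, and the 5 nearest genes to GATAD2A were named, except for items not reported here. For a shift by the enriched median, p-values came from a normal approximation with a standard error from the deposited p. Matching was tested on deposited windows moved by a share of their length. Calling was tested on simulated windows with changes of either sign, so the shift was not tried with a median away from 0. Python 3.11.15, numpy 2.4.6, pandas 2.3.3, scipy 1.17.1 and matplotlib 3.10.9 were used.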

Additional observations from a re-analysis of the deposited data

How the results depend on the processing

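No paired analysis was possible because each table gives knockout against sgNS as 1 value with no libraries to pair, and the guides were not tested against each other. The median shift was the only alternative for calls that can turn a sign. Its largest size, 0.135, was below the smallest called log2 fold change, 0.267. It therefore could not turn the sign of any of the 11 higher calls. They remained called in 9 cases with an FDR of 0.01, 9 with a two-sided p, 11 with 1 window per gene, 5 with a minimum absolute log2 fold change of 0.5, 3 with a fold enrichment of at least 2, and 5 when the median of a table's enriched windows was subtracted from it (-0.04 and 0.13 for sgMETTL16-1, 0.13 and 0.14 for sgMETTL16-2). After the shift the calls left were HDAC1 in both replicate 2 tables and CHD4, GATAD2A and MTA1 in replicate 1 of sgMETTL16-2. In that last table an unenriched HDAC2 window was newly called lower at -0.52, 1 lower call in all. It was 1 of 48 NuRD windows there, beside 839 of all 75788 windows called lower after the shift. The p used with the shift is two-sided, so calls lost can come from it as well as from the shift.

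Higher calls of the 8 genes in replicate 2 of sgMETTL16-1 fell to 2 with the minimum fold change, 0 with the minimum enrichment and 1 with the shift. In replicate 1 of sgMETTL16-2 they fell to 1 with the minimum enrichment, and in replicate 2 to 1, 2 and 1 in that order. Called in both tables of sgMETTL16-2 were 0 with the minimum fold change, 1 with the minimum enrichment, 0 after the shift and 1 with an overlap of 0.8, which drops MTA1. Single tables gave 0 to 4 higher calls for sgMETTL16-1 and 3 to 4 for sgMETTL16-2.

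For the other subunits, the lower call of sgMETTL16-1 replicate 1 went to 0 with an FDR of 0.01, the minimum enrichment or the shift, and the 2 of sgMETTL16-2 replicate 1 to 1 with an FDR of 0.01, the minimum enrichment or a two-sided p. The MBD3 calls went to 0 in all 3 tables with the minimum fold change, and in replicate 2 of sgMETTL16-2 also after the shift. The cause was not tested.

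Medians of NuRD windows with a fold enrichment of at least 2, whatever their FDR, came to 0.53, 0.49, 0.50 and 0.29 in table order. They rest on 4, 5, 4 and 6 windows, of which 0, 1, 1 and 4 were enriched, so the first, against -0.17 over enriched windows, holds unenriched windows alone (3 on HDAC2 and 1 on MTA2). In replicate 2 of sgMETTL16-1 the median was 0.34 with 1 window per gene and 0.081 after centring. In replicate 1 of sgMETTL16-2 the median was 0.0364 over every window and -0.004 after centring, and in replicate 2 it was 0.39 with 1 window per gene and 0.041 after centring. The GATAD2A mean ranged from 0.04 to 0.15 for sgMETTL16-1 and from 0.48 to 0.70 for sgMETTL16-2 when either replicate was left out. The sgMETTL16-1 values are those of windows over mostly different bases, so their range is not a spread between replicates. Matching within sgMETTL16-1, an alternative chosen after seeing the data, gave 0.43.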
